A study of Rattus norvegicus with 8 samples.

Results

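The genes described here encode the factors that start and extend protein chains on the ribosome. They were chosen by name, taking every gene whose symbol begins with Eif1 to Eif6 or with Eef1 or Eef2 and leaving out the eIF2 kinases, the Y-linked Eif2s3y and pseudogene names, which gave 61 of the 32623 genes counted. They comprise 15 genes of the eIF1, eIF2, eIF5 and eIF6 group, 5 subunits of the exchange factor eIF2B, 12 subunits of eIF3, 15 genes of the eIF4 group, and 14 elongation factors with the enzymes that modify them. RNA was sequenced from the venous limb of a surgical arteriovenous fistula (AVF), in which the epigastric vein of a Sprague Dawley rat is joined to its femoral artery. A nanofiber scaffold was wrapped around the vein at surgery, either loaded with β-aminopropionitrile (BAPN), an inhibitor of the collagen- and elastin-crosslinking enzyme lysyl oxidase, or empty as vehicle control. All veins were taken at 21 days, with 1 library per rat. BAPN 1, 2 and 3 were females and BAPN 4 was a male, while Vehicle 1 and 2 were females and Vehicle 3 and 4 were males. There were thus 4 libraries per group, and nothing in the labels or methods says that any rats were pooled.

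Protein synthesis starts when eIF2, carrying GTP and the initiator tRNA, joins the small ribosomal subunit together with eIF1, eIF1A, eIF3 and eIF5. The eIF4 proteins bring in the mRNA by its cap, eIF5B joins the large subunit, and eIF2B recharges eIF2 with GTP. The elongation factors eEF1A and eEF2 then deliver aminoacyl-tRNA and move the ribosome along, and cells tune the whole pathway through phosphorylation of eIF2, of eEF2 and of the 4E-BP proteins that hold the cap-binding protein eIF4E.

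The promoters of 4 genes whose RNA differed between the groups are shown because they hold the letters searched for among translation factor promoters. They are given from 150 bases before to 10 bases after the RefSeq start (GRCr8), 5′ to 3′ on the strand of the gene, and capitals mark CACGTG (the E-box, read alike on both strands) or CCGGAA (an ETS core, TTCCGG on the other strand). Eif4e lies on the plus strand at chr2:229740603-229740762, Eif1b on the plus strand at chr8:129081008-129081167, Eif3i on the minus strand at chr5:147226901-147227060 and Eif4ebp2 on the minus strand at chr20:29942913-29943072.
Eif4e: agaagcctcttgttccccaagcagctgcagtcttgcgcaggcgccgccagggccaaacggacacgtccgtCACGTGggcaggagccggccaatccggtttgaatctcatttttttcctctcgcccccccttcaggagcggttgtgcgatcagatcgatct
Eif1b: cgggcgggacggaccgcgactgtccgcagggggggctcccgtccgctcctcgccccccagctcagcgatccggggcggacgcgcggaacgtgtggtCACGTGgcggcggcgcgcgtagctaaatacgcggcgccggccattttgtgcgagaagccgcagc
Eif3i: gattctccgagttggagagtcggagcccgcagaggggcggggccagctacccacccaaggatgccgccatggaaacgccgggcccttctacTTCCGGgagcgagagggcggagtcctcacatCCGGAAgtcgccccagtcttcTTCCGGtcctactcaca
Eif4ebp2: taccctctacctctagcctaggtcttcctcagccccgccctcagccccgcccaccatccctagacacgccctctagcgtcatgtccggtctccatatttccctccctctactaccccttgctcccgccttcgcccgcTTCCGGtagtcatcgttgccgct
The search covered 57 windows of 300 bases at 54 of the genes, and neither motif can overlap the other. CACGTG stood in 12 windows, 21.1%, against 6.42% of all 33469 RefSeq windows and 9.06% of the 9930 windows of tested genes. CCGGAA stood in 28 windows, 49.1%, against 27.4% of the windows of tested genes. Among genes with a window, CACGTG was found in 2 of 17 called and 10 of 37 uncalled genes, and CCGGAA in 8 of 17 called and 18 of 37 uncalled genes. A match describes the letters of the window only.

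The total count was 45039451 to 52241007 in the BAPN libraries and 19548203 to 22442050 in the vehicle libraries, so that every BAPN library was at least 2.01 times as deep as any vehicle library, and depth and treatment cannot be told apart by library. Translation factor reads made up 1.42% to 1.55% of each BAPN library and 1.26% to 1.42% of each vehicle library, and the groups overlapped. Levels are in CPM, the count of a gene relative to the TMM-scaled library total, and are not divided by transcript length. A gene was called at an edgeR false discovery rate (FDR, Benjamini-Hochberg over 11682 tested genes) below 0.05. The smooth muscle, endothelial, fibroblast and leukocyte markers with values, all but Pecam1, had reads in every library. The 5 smooth muscle markers summed to 1398 to 3908 CPM under BAPN against 2860 to 5483 CPM under vehicle, with 3 called lower, and the 4 endothelial markers with values summed to 185 to 356 against 454 to 1157 CPM, with 2 called lower. The 5 leukocyte markers summed to 1373 to 2234 against 624 to 1646 CPM, with 2 called higher. In edgeR 0 genes were called among 4 fibroblast, 8 Schwann cell or 2 skeletal muscle markers, at 2780 to 4246 against 2952 to 5374 CPM, 99.6 to 363 against 131 to 170.1 CPM, and 19.2 to 32.5 against 20.2 to 74.6 CPM over each whole list, with 1 gene of each list at an unadjusted p below 0.05 and 1, 0 and 1 called by DESeq2. None of the keratinocyte markers reached the level tested, with sums of 1.65 to 10.9 against 0.64 to 5.24 CPM. In whole veins, fewer cells of a type and less RNA per cell cannot be told apart, and the part of these shifts in the results on translation factors was not tested.

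Most translation factor genes had log2 fold changes above 0 with BAPN, and the genes that passed the test were, with 1 exception, higher. Of the 59 genes tested, 18 rose, which is 30.5% against 7.5% of all tested genes, and 1, Eif4ebp2, fell against 9.25% of all. Called genes in either direction came to 32.2% of the set and 16.8% of all tested genes. The log2 fold change was above 0 in 48 genes and below 0 in 11, where 51.6% of all tested genes were above 0, and its median was 0.28 against 0.02 over all tested genes. The differences were modest, from -0.70 to 0.73 on the log2 scale. The groups were apart with BAPN higher in 29 genes (12.7% of all tested genes) and lower in 2 genes, Eif4ebp2 and Eef2k (11.9%), and they overlapped in 28. For each gene without overlap the exact two-sided permutation p was 0.0286, the smallest that 4 against 4 rats allow.

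**Figure D1:**
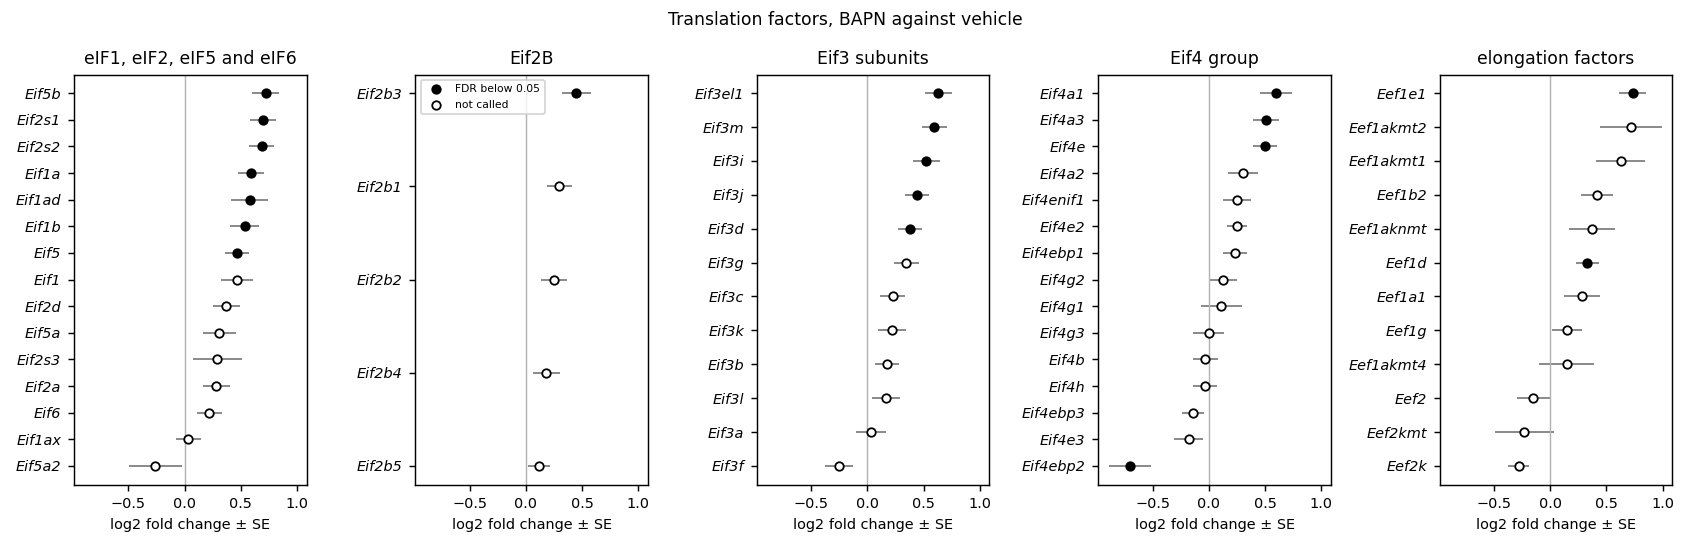
Log2 fold change (BAPN against vehicle, x axis) of each of the 59 tested translation factor genes, by family, with bars for the standard error, filled points for an FDR below 0.05 and open points for the others. In the group of eIF1, eIF2, eIF5 and eIF6 14 of 15 points lie right of 0, and the eIF4 group spans -0.70 to 0.60.

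The number of calls depended on single rats. All 19 called genes had no overlap between the groups, so leaving out rats could hardly turn a sign. Their sign was kept in each of 8 fits that left out 1 rat. In every one of these fits 5 of them, Eif2s1, Eif2s2, Eif5b, Eif3m and Eef1e1, were called. Without Vehicle 1 these 5 were the only calls, where 3.40% of all tested genes were called. Leaving out BAPN 3 left 8 calls (6.38% of all genes), BAPN 4 left 9 (7.76%), Vehicle 4 left 11 (8.24%) and BAPN 2 left 12 (10.5%), so calls fell over all genes as well. With sex in the model 11 of the genes were called, beside 7.96% of all genes. The calls lost there were those of Eif5 (FDR = 0.0514), Eif3i (0.0514), Eif4a1 (0.0552), Eif4ebp2 (0.0657), Eif1ad (0.0708), Eif3d (0.0755), Eif2b3 (0.0833) and Eef1d (0.0971). With the counts thinned to the smallest library total 17 were called, beside 16.4% of all genes. Among females alone, 3 against 2 rats, none was called, beside 0.762% of all genes. There 23 of 59 genes had an unadjusted edgeR p below 0.05. All 19 kept their direction, which the lack of overlap made nearly certain. DESeq2 called all 19 and 9 more, 28 in total, where it called 27.4% of all tested genes. The 9 were Eef2k (FDR = 0.00851), Eif1 (0.00913), Eif4e2 (0.0214), Eif3g (0.0249), Eif2d (0.0258), Eef1akmt2 (0.0281), Eef1a1 (0.0286), Eef1akmt1 (0.0316) and Eef1b2 (0.0456).

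Within each rat, the median over the genes of a family separated the groups, which restates the gene values above. Vehicle values lie near 0 by construction, and no such median was taken over all tested genes. Relative to the vehicle mean, the median log2 level of all translation factors was 0.25, 0.28, 0.42 and 0.28 across BAPN 1 to 4, against -0.01, 0.05, -0.03 and 0.02 across Vehicle 1 to 4. BAPN 3 stood highest. The family medians of the BAPN rats were above those of the vehicle rats in each of the 5 families, and they lay closest in the eIF4 group, at 0.07 to 0.20 against -0.03 to 0.04.

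**Figure D2:**
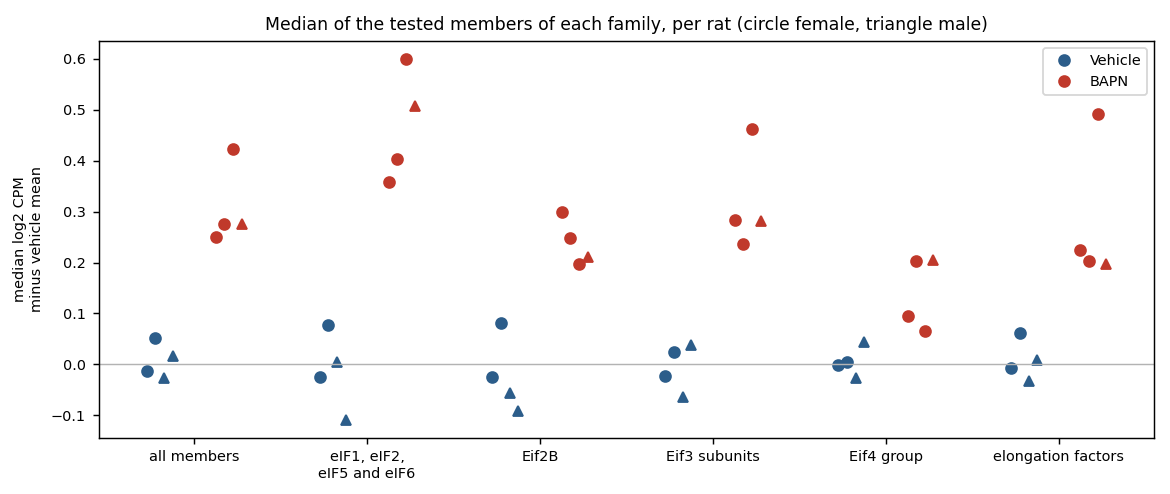
Median log2 CPM minus the vehicle mean (y axis) over all tested translation factors and over each family, with 1 point per rat (circles females, triangles males, red BAPN, blue vehicle). Over all members the BAPN rats lie between 0.25 and 0.42 and the vehicle rats between -0.03 and 0.05.

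Among the factors that select the start codon, eIF2 subunits α and β rose with BAPN while the call was not made for γ. The whole eIF1, eIF2, eIF5 and eIF6 group of 15 genes also holds factors of other steps, such as Eif5a, Eif5b and Eif6. Of the 15, 7 rose (7.5% of all tested genes) and none fell, with a median log2 fold change of 0.47. There were 9 genes without overlap, all higher (12.7% of all tested genes). Eif2s1, the α subunit whose phosphorylation slows initiation, was at 73.6, 96.4, 84.3 and 78.7 CPM in BAPN 1 to 4 and 55.8, 53.4, 50.4 and 45.6 CPM in Vehicle 1 to 4. Eif2s2, the β subunit, was at 136, 174, 155 and 139 CPM in the BAPN rats and 88.9, 94.9, 88.8 and 102 CPM in the vehicle rats. For both genes the lowest BAPN rat was above the highest vehicle rat. Eif2s1 averaged 83.3 ± 9.79 against 51.3 ± 4.41 CPM (SD, n = 4), a log2 fold change of 0.70 (SE 0.12, edgeR FDR = 0.0105). Eif2s2 averaged 151 ± 17.3 against 93.6 ± 6.11 CPM, a log2 fold change of 0.69 (SE 0.11, FDR = 0.0105).

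Eif5b, the GTPase of subunit joining, had the lowest FDR of all translation factors. Its level was 101, 107, 114 and 114 CPM in the BAPN rats against 66.2, 55.7, 65.8 and 76.4 CPM in the vehicle rats, so the groups were apart. The log2 fold change was 0.72 (SE 0.12, edgeR FDR = 0.00946). Eif5, which triggers GTP hydrolysis by eIF2, rose by 0.47 (SE 0.11, FDR = 0.0235), from 162 ± 12.4 to 224 ± 11.2 CPM, without overlap between the groups. This call held without BAPN 1 or Vehicle 2 and was lost without any other rat (FDR up to 0.0612). Eif6, which keeps the large subunit from joining early, was at 64.1 ± 4.39 against 54.9 ± 6.98 CPM (log2 fold change 0.22, FDR = 0.188).

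Among the scanning factors Eif1a rose and its close relative Eif1ax was not called, and the difference between them was not tested. Eif1a, one of the genes for eIF1A, was at 71.4, 87.5, 77.5 and 73.8 CPM in the BAPN rats against 47.4, 47.5, 51.5 and 59.0 CPM in the vehicle rats (log2 fold change 0.59, SE 0.11, edgeR FDR = 0.0146), a call lost without Vehicle 1 (FDR = 0.0515). Eif1ax, its X-linked relative, was at 75.0, 89.8, 80.9 and 82.6 CPM against 81.7, 79.9, 69.4 and 90.3 CPM, and the groups overlapped throughout (log2 fold change 0.03, SE 0.11, FDR = 0.855). Near-identical genes can share reads, and how such reads were counted is not given in the sources used here. Eif1b, a relative of Eif1, rose by 0.54 (SE 0.13, FDR = 0.025), and Eif1ad, an eIF1A domain gene, rose by 0.58 (SE 0.17, FDR = 0.0435). The Eif1b call was lost when BAPN 3, BAPN 4, Vehicle 1 or Vehicle 4 was left out (FDR up to 0.0667), and the Eif1ad call was kept without Vehicle 3 alone (FDR up to 0.115 elsewhere). Eif1 itself, whose protein guards start codon choice, had no overlap, at 252.2 to 356 against 194 to 247 CPM, but just missed the threshold (log2 fold change 0.47, SE 0.14, FDR = 0.0516) and passed it without BAPN 1 (FDR = 0.0418). Eif2d, an alternative tRNA-delivering factor, also had no overlap (log2 fold change 0.37, FDR = 0.059) and was called without Vehicle 2 (FDR = 0.0379).

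Eif5a, which eases ribosomes through difficult peptide bonds once it carries hypusine, drew the most reads of the group, at 433 ± 72.8 against 349 ± 34.6 CPM (log2 fold change 0.31, SE 0.15, FDR = 0.176), and at a log2 fold change of 0.19 without BAPN 3. Its relative Eif5a2, at 16.0 ± 4.63 against 19.2 ± 4.03 CPM, had the only negative value of the group (log2 fold change -0.26, SE 0.24, FDR = 0.432), which ranged from -0.48 without BAPN 2 to -0.13 without BAPN 4. For Dhps and Dohh, the enzymes that make hypusine, the log2 fold changes were 0.27 and 0.17, and 0 of the 2 were called by edgeR or DESeq2, with 0 at an unadjusted p below 0.05.

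**Figure D3:**
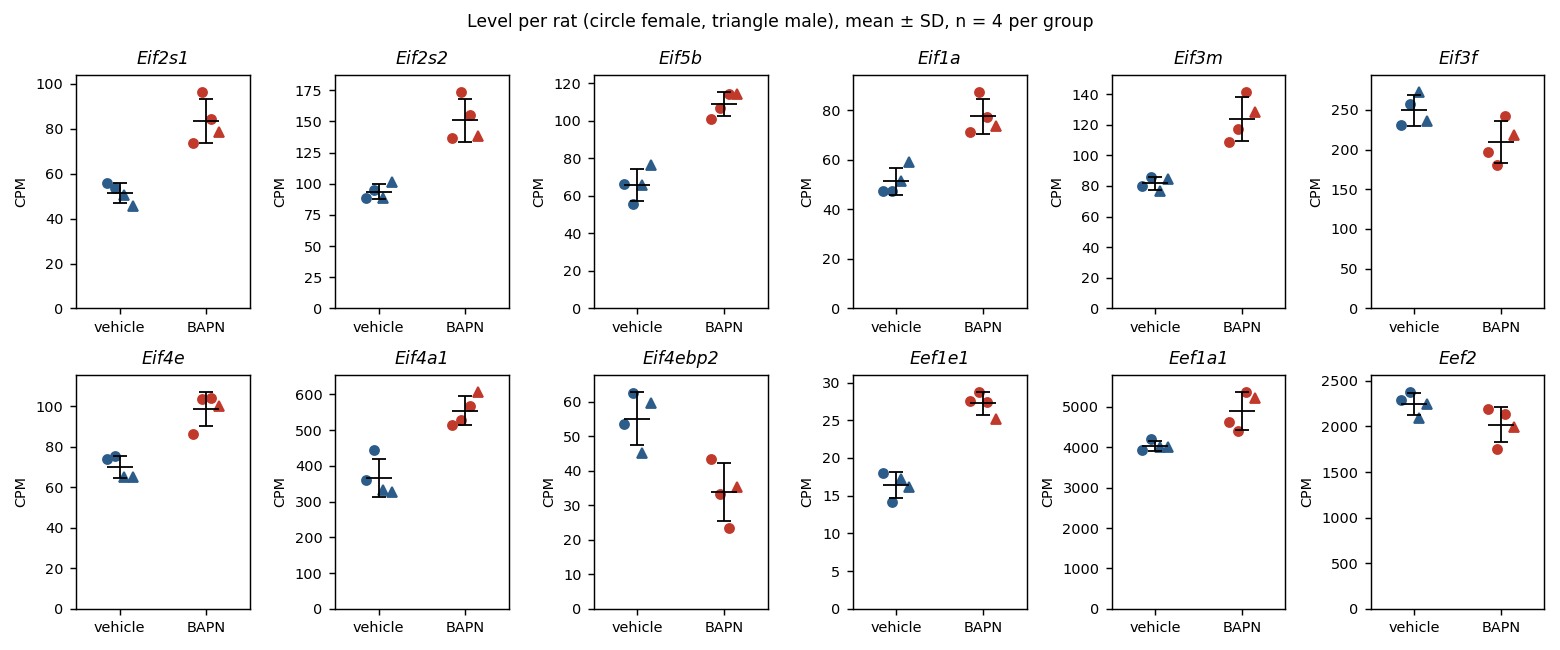
Level in CPM (y axis) of 12 translation factor genes in each vehicle rat (blue) and BAPN rat (red), with circles for females, triangles for males and the group mean ± SD (n = 4). The groups are apart for Eif2s1, Eif2s2, Eif5b, Eif1a, Eif3m, Eif4e, Eif4a1, Eef1e1, Eef1a1 and, downward, Eif4ebp2, and overlap for Eif3f and Eef2.

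Eif2s3, the γ subunit, showed levels that went with sex. Its level was 185, 188, 216 and 130 CPM in BAPN 1 to 4 and 176, 182, 120.5 and 109 CPM in Vehicle 1 to 4, which gave a log2 fold change with BAPN of 0.29 (SE 0.22, edgeR FDR = 0.344). That value was 0.15 with sex in the model, 0.13 among females, 0.17 without Vehicle 4 and 0.19 without BAPN 3. The highest value on leaving out 1 rat was 0.42. The low values were BAPN 4, Vehicle 3 and Vehicle 4, the 3 males. Females were at 176 to 216 CPM (189 ± 15.6, n = 5) and males at 109 to 130 CPM (120 ± 10.2, n = 3), with an exact two-sided permutation p of 0.0179, the smallest that 56 arrangements allow. This gene lies on the X chromosome, and the sexes were compared after its values had been seen. In an edgeR fit with treatment and sex its male-against-female coefficient was -0.62 and did not pass over all genes (FDR = 0.816), and 0 of 59 translation factors were called by sex where 0.00856% of all genes, 1 gene, was called. Of the 59, 1 had an unadjusted p below 0.05 for sex. Eif1ax, also X-linked, was at 75.0 to 89.8 CPM in females and 69.4 to 90.3 CPM in males (exact permutation p = 0.911).

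**Figure D4:**
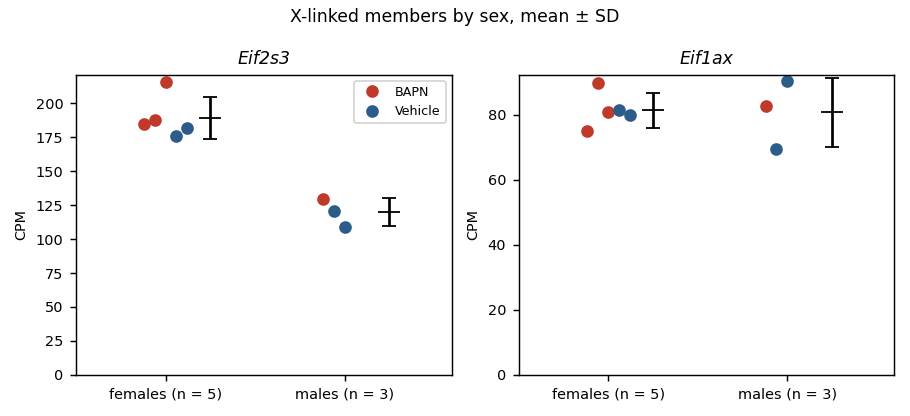
Level in CPM (y axis) of the X-linked genes Eif2s3 and Eif1ax in 5 female and 3 male rats, red for BAPN and blue for vehicle, with the mean ± SD of each sex beside the points. For Eif2s3 all males lie at or under 130 CPM and all females at or above 176 CPM, and for Eif1ax the sexes overlap.

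The eIF2B subunits, which form the exchange factor that eIF2 phosphorylation blocks, all had positive values, and 1 of 5 was called, a share near the 16.8% of all tested genes. Eif2b3, the γ subunit, was at 18.9, 19.3, 18.5 and 19.1 CPM in the BAPN rats against 13.6, 16.3, 13.3 and 12.4 CPM in the vehicle rats, and the BAPN rats were both higher and closer together. Its log2 fold change was 0.45 (SE 0.13, edgeR FDR = 0.0436), and the call held without Vehicle 2 but was lost without any other rat (FDR up to 0.105). For the α, β, δ and ε subunits Eif2b1, Eif2b2, Eif2b4 and Eif2b5 the log2 fold changes were 0.30, 0.25, 0.18 and 0.11, with FDR values of 0.0833, 0.14, 0.27 and 0.416. The groups did not overlap for Eif2b1 and Eif2b2.

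On the kinase and target side of eIF2, a list of 19 tested genes held 1 called higher and 2 called lower, 15.8% of the list and close to the 16.8% of all tested genes, with a median log2 fold change of 0.15. Atf4, the transcription factor whose mRNA is translated when eIF2 is phosphorylated, was at 350 against 244 CPM (log2 fold change 0.52, SE 0.12, edgeR FDR = 0.0261). Atf5 (log2 fold change -0.90, FDR = 0.00731) and Cebpb (-0.56, FDR = 0.0347), further stress-linked transcription factors, fell. These values are RNA levels, and phosphorylation was not measured.

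The eIF3 subunits, which form the scaffold on the small ribosomal subunit, were called in part. Of 12 genes 5 rose (7.5% of all tested genes), 11 had a log2 fold change above 0 (51.6% of all tested genes), and the median was 0.29. Eif3m was at 108, 117, 141 and 128 CPM in the BAPN rats against 80.0, 85.8, 76.8 and 84.7 CPM in the vehicle rats, with a clear gap between the groups (log2 fold change 0.60, SE 0.11, edgeR FDR = 0.0136). Eif3el1 was at 116, 124, 153 and 125 CPM against 74.3, 83.4, 83.6 and 93.5 CPM, again without overlap (log2 fold change 0.63, SE 0.12, FDR = 0.0155). RefSeq gives the name Eif3el1 both as a synonym of Eif3e and to a separate short gene, so which of them the counts stand for is uncertain, and the call was lost without Vehicle 1 (FDR = 0.0524). Eif3i rose by 0.52 (SE 0.12, FDR = 0.0232), Eif3j by 0.44 (SE 0.10, FDR = 0.0235) and Eif3d, a cap-binding subunit, by 0.38 (SE 0.11, FDR = 0.0366). Eif3i lost its call without BAPN 3 or Vehicle 1 (FDR up to 0.0674) and Eif3j without BAPN 2, BAPN 3, BAPN 4, Vehicle 1 or Vehicle 3 (FDR up to 0.0639). Eif3d lost it without any 1 rat (FDR 0.0555 to 0.0911).

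The large core subunits of eIF3 were not called. Eif3a, the largest subunit and the one with the most reads, was at 303, 290, 265 and 285 CPM in the BAPN rats against 289, 265, 234 and 327 CPM in the vehicle rats, the BAPN range lying within the vehicle range (log2 fold change 0.03, SE 0.13, FDR = 0.873). Eif3b was at 145 ± 11.2 against 128 ± 9.92 CPM (0.17, FDR = 0.268) and Eif3c at 244 ± 7.11 against 209 ± 22.3 CPM without overlap (0.22, FDR = 0.193). Eif3f, a subunit with a deubiquitinase-like fold, had the only negative value among the subunits, at 197, 180.3, 242 and 219 CPM against 231, 258, 273 and 236 CPM (log2 fold change -0.25, SE 0.12, FDR = 0.191). Only BAPN 3 reached into the vehicle range. Eif3g, an RNA-binding subunit, was at 97.4 ± 10.01 against 76.6 ± 6.58 CPM without overlap (0.35, FDR = 0.0563).

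Shares of the reads of the 12 named eIF3 genes within a rat do not depend on scaling. In these, 5 genes were apart between the groups (Eif3el1, Eif3f, Eif3i, Eif3j and Eif3m) and 7 overlapped. In CPM, a different measure, 12.7% of all tested genes were apart higher and 11.9% lower, and shares were not taken for other sets. Eif3el1, Eif3i, Eif3j and Eif3m were already called and apart in CPM, so their shares largely repeat those calls. Eif3f made up 11.4% to 13.7% with BAPN and 15.6% to 19.8% with vehicle, and was the one of the 5 that was lower. Eif3m made up 6.71% to 8.04% against 5.57% to 5.90%, and Eif3el1 7.20% to 8.72% against 5.18% to 6.18%. Eif3i made up 2.61% to 3.03% against 1.96% to 2.41%, and Eif3j 3.97% to 4.74% against 3.45% to 3.83%. The share of Eif3a, 15.1% to 18.7% against 17.0% to 21.7%, overlapped. Shares within a set sum to a fixed total, so they show unequal change and not which subunit changed. These shares, and the ratios below, were looked at after the values of their genes were known and were not tested.

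The eIF4 group, which handles the cap and the mRNA, held opposite changes: the cap-binding protein Eif4e and the helicase Eif4a1 rose, and the eIF4E inhibitor Eif4ebp2 fell. Of 15 genes 3 rose and 1 fell, where 16.8% of all tested genes were called, and 9 values were above 0, where 51.6% of all tested genes were. The median log2 fold change was 0.13, and it was 0.08 without BAPN 2 and 0.07 with scaling by library totals alone. Eif4e was at 86.3, 104, 104 and 100.3 CPM in the BAPN rats against 74.0, 75.3, 65.1 and 65.3 CPM in the vehicle rats, BAPN 1 being the lowest of its group and still above every vehicle rat. The means were 98.7 ± 8.42 and 69.9 ± 5.47 CPM (log2 fold change 0.50, SE 0.11, edgeR FDR = 0.0187), and the call was lost without Vehicle 1 (FDR = 0.0516). Its promoter stretch, printed above, carries 1 E-box. Eif4a1, the helicase that unwinds mRNA leaders, was at 514, 529, 567 and 606 CPM against 362, 443, 332 and 326 CPM, the groups being apart although Vehicle 2 stood above its group (log2 fold change 0.60, SE 0.14, FDR = 0.0261). Eif4a3, the related helicase of the exon junction complex, was at 109 ± 3.35 against 76.4 ± 10.1 CPM (0.51, SE 0.12, FDR = 0.0213). The Eif4a1 call was lost without BAPN 3, BAPN 4, Vehicle 1, Vehicle 3 or Vehicle 4 (FDR up to 0.074), and the Eif4a3 call without BAPN 3, BAPN 4 or Vehicle 1 (FDR up to 0.0628).

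Eif4ebp2, one of the 4E-BP proteins that release eIF4E when mTORC1 phosphorylates them, was at 43.5, 33.2, 23.4 and 35.4 CPM in the BAPN rats against 53.5, 62.4, 45.1 and 59.5 CPM in the vehicle rats. BAPN 3 was the lowest rat, and BAPN 1 lay just under the lowest vehicle rat. The means were 33.9 ± 8.27 and 55.1 ± 7.67 CPM (log2 fold change -0.70, SE 0.19, edgeR FDR = 0.0355). The call was kept without BAPN 1 or Vehicle 3 and lost without any other rat, with log2 fold changes from -0.85 to -0.56 and FDR values up to 0.0804. The other 4E-BP genes were not called: Eif4ebp1 was at 62.1, 69.5, 81.6 and 75.9 CPM against 60.9, 59.6, 61.9 and 63.4 CPM (log2 fold change 0.23, SE 0.11, FDR = 0.139), and Eif4ebp3 had a log2 fold change of -0.14 (FDR = 0.305).

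Within each rat, the Eif4e count was 1.99, 3.12, 4.46 and 2.83 times the Eif4ebp2 count across BAPN 1 to 4, against 1.38, 1.21, 1.44 and 1.10 times across Vehicle 1 to 4. Eif4e was higher and Eif4ebp2 lower in every BAPN rat, so this ratio had to be higher there too. As a ratio of read counts it is not per length and does not give a ratio of molecules. Against Eif4ebp1 the Eif4e ratio was 1.28 to 1.49 with BAPN and 1.03 to 1.26 with vehicle, also without overlap. The Eif3m to Eif3f ratio was 0.552 to 0.650 against 0.282 to 0.359, and that of Eif1a to Eif1ax 0.893 to 0.974 against 0.581 to 0.742. The ratios of Eif4a1 to Eif4a2, Eif2s1 to Eif2s3, Eif2s2 to Eif2s3, Eif5a to Eif5a2 and Eif5b to Eif5 overlapped between the groups.

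**Figure D5:**
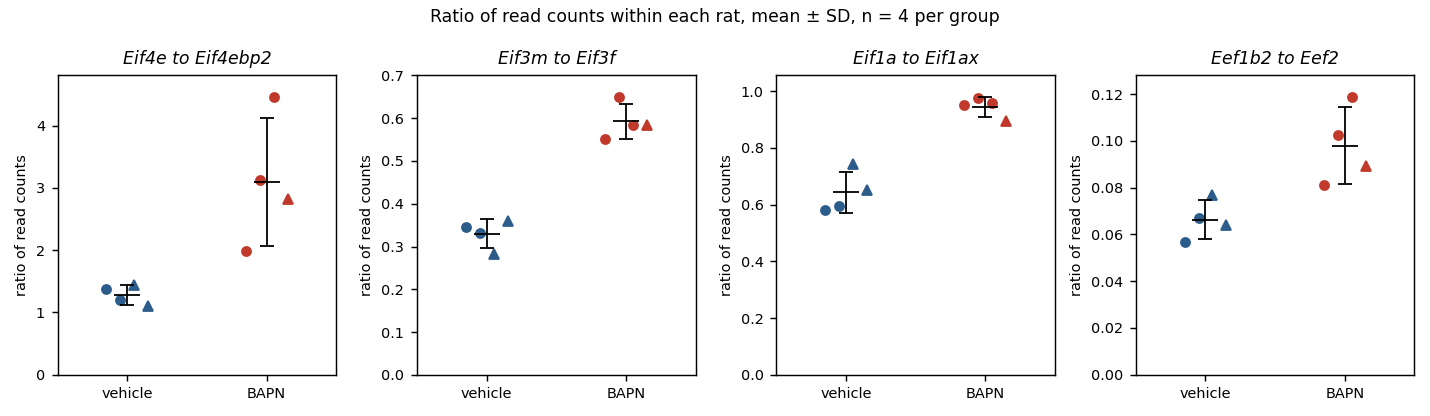
Ratio of read counts within each rat (y axis) for 4 pairs of translation factor genes, with circles for females, triangles for males and the mean ± SD (n = 4). The Eif4e to Eif4ebp2 ratio lies between 1.99 and 4.46 in BAPN rats (red) and between 1.10 and 1.44 in vehicle rats (blue).

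The scaffold proteins of the cap complex were not called. Eif4g2, an eIF4G relative without the eIF4E site and the gene with the most reads in the group, was at 796 ± 62.8 against 728 ± 40.3 CPM (log2 fold change 0.13, SE 0.13, FDR = 0.503), with 0.08 without BAPN 2. For Eif4g1 and Eif4g3 the log2 fold changes were 0.11 (SE 0.18, FDR = 0.685) and -0.00 (SE 0.14, FDR = 0.991). The helicase partners Eif4b and Eif4h, at -0.03 each (FDR = 0.855 and 0.841), were also not called, and their sign and those of Eif4g1 and Eif4g3 turned under some settings. Eif4a2, the close relative of Eif4a1, was at 230 ± 32.8 against 186 ± 20.7 CPM (0.30, SE 0.14, FDR = 0.151), with 0.20 without BAPN 2 and 0.47 among females. Eif4e2, a cap-binding relative that represses translation, had no overlap but missed the threshold (0.25, SE 0.09, FDR = 0.0705).

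Around the cap complex, 21 tested genes of the mTORC1 and MNK pathways, which control the 4E-BP proteins and eIF4E, held 3 called higher and none lower, 14.3% of the list where 16.8% of all tested genes were called in either direction and 7.5% higher, with a median log2 fold change of 0.08. These were Lamtor2 (0.57, FDR = 0.0346) and Lamtor5 (0.57, FDR = 0.0225), which anchor mTORC1 regulators at the lysosome, and Rheb (0.34, FDR = 0.0482), the GTPase that activates mTORC1. Among 13 poly(A)-binding and accessory factors 4 were called higher and none lower, 30.8% of the list where 7.5% of all tested genes were called higher and 16.8% in either direction, with a median of 0.16. Among them were Tma7 (1.02, FDR = 0.0055), Denr, a recycling and reinitiation factor (0.38, FDR = 0.0408), and Paip2, a repressor of poly(A)-binding protein (0.38, FDR = 0.0323). Among 4 termination and recycling factors edgeR called 0, with 1, the release factor Etf1 (0.32, FDR = 0.0531), at an unadjusted p below 0.05 and called by DESeq2.

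Among the elongation factors, 2 of the 12 tested genes rose, 16.7% called where 16.8% of all tested genes were, the median log2 fold change was 0.31, and the factors with the most reads were not called. Eef1e1, a scaffold protein of the multi-tRNA synthetase complex named for its likeness to eEF1, had the largest log2 fold change of all, 0.73 (SE 0.12, edgeR FDR = 0.00986). Its level was 27.6, 28.7, 27.4 and 25.2 CPM in the BAPN rats against 18.0, 14.1, 17.2 and 16.2 CPM in the vehicle rats, and the groups were well apart. Eef1d, the δ subunit of the factor that recharges eEF1A, was at 106, 107, 126 and 108 CPM against 85.7, 94.2, 85.3 and 89.9 CPM (log2 fold change 0.33, SE 0.10, FDR = 0.0469). BAPN 3 stood above its group there, and the call was kept without Vehicle 2 and lost without any other rat (FDR up to 0.119). The other subunits of that factor were Eef1b2, at 178, 180, 253.8 and 178 CPM against 130, 159, 161 and 144 CPM (0.41, SE 0.14, FDR = 0.0823), and Eef1g (0.15, FDR = 0.462). Without BAPN 3 these log2 fold changes were 0.27 for Eef1b2 and 0.07 for Eef1g.

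Eef1a1, the tRNA-delivering factor and the translation factor with the most reads, was at 4623, 4398, 5357 and 5226 CPM in the BAPN rats against 3925, 4211, 4000.3 and 3998 CPM in the vehicle rats. The groups did not overlap, the log2 fold change was 0.28 (SE 0.16), and the FDR was 0.247 in edgeR and 0.0286 in DESeq2. The name Eef1a1 is shared with 20 RefSeq pseudogene entries, and reads shared with them could have been counted elsewhere. Eef2, the translocase, was at 2195, 1754, 2136 and 1997 CPM against 2285, 2376, 2087 and 2246 CPM, with overlap (log2 fold change -0.15, SE 0.15, FDR = 0.488), with -0.10 without BAPN 2. Its kinase Eef2k, which inhibits eEF2, was at 99.8, 99.1, 89.3 and 96.0 CPM against 121, 111, 113 and 123 CPM. Every BAPN rat was lower there, while the edgeR FDR of 0.0619 missed the threshold (log2 fold change -0.28, SE 0.09) and DESeq2 called it lower (FDR = 0.00851).

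The lysine methyltransferases of the elongation factors had few reads. Eef1akmt1 (12.1 ± 1.87 against 7.86 ± 1.90 CPM) and Eef1akmt2 (8.34 ± 2.47 against 5.07 ± 0.80 CPM) had no overlap, with log2 fold changes of 0.63 and 0.72 and FDR values of 0.0699 and 0.0708. Eef2kmt had a log2 fold change of -0.23 (FDR = 0.556). Eef1a2, the eEF1A form of adult muscle and neurons, was at 0 to 0.726 CPM under BAPN against 0 to 0.699 CPM under vehicle and was not tested, nor was Eef1akmt3, since their mean counts were below the minimum of 100. The 40 genes tested but not called ranged from -0.28 to 0.72 in log2 fold change with FDR values of 0.0516 to 0.991, and with 4 rats per group a miss of the threshold does not show that a level was equal.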

How the data were processed

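RNA from the outflow vein of 8 rats was sequenced, 4 with BAPN and 4 with vehicle scaffolds at 21 days, and groups, replicate numbers and sex came from the labels. Libraries were made with a stranded total RNA kit after ribosomal RNA depletion. The deposited files hold raw counts of reads per gene for 32623 genes, made by the authors without normalization. The submitters' processing notes name bcl2fastq 2.17, Trim Galore and STAR. The counter, annotation, genome build and strand setting are not given in the sources used here, so reads of overlapping, antisense or near-identical genes may be misassigned, and 34 of the 61 genes share their name with RefSeq pseudogene entries. Total counts are given with the results, and tested genes held 99.5% to 99.7% of them.

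As in the study's methods, genes with a base mean (DESeq2 size factors) under 100 were left out. BAPN was compared with vehicle in edgeR 4.0.16 (TMM, quasi-likelihood F test, treatment alone, R 4.3.3), with Benjamini-Hochberg adjustment over 11682 genes. Standard errors came from limma 3.58.1 (voom). DESeq2 1.42.0, other scaling and filters, sex, females alone, thinning to 19548203 reads, a replicate block and leaving out each rat were alternatives, and the fit by sex was added after seeing the data. Exact tests, two-sided, used all 70 arrangements of the treatment groups (log2 CPM, prior count 2) and all 56 of the sexes (log2 CPM without a prior count). On simulated counts for this comparison edgeR recovered 186 of 200 genes changed by 1.5 on the log2 scale among 11682, with 15 false calls. The translation factors changed by -0.70 to 0.73, so this recovery does not show how often changes of their size are found. A check for a library deposited more than once found no pair within a group that agreed within counting noise (chi-square per degree of freedom 68.6 to 321). Same-numbered rats did not deviate together (correlations 0.0944, -0.265, 0.269 and -0.140), so the numbers were not taken as pairs.

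The genes and lists were chosen with earlier results of these data known. Named are every called gene, in each family the highest CPM and the largest and smallest log2 fold change, and a set of core factors by role, other names being further values chosen after they were seen. RefSeq (GRCr8) matched 60 of 61 names, Eef1aknmt being the exception, and supplied promoters and chromosomes. Eif3e and Eif3h were not analysed here under those names, and 1 called gene of the accessory factors is not reported here by name.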

Additional observations from a re-analysis of the deposited data

Results flagged for a closer look

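In groups of 4 rats, a value was singled out when its gap to the nearest rat exceeded the critical value of Dixon's outlier test at the 95% level, which chance gives in about 1 of 20 groups. Among 118 groups, 8 had such a value, and 5 of the 8 were in BAPN 3. BAPN 3 was the highest of its group for Eif3i (53.2 CPM, the others 42.4 to 43.2), Eef1akmt2 (12.03 CPM, the others 6.79 to 7.34), Eef1b2 (253.8 CPM, the others 178 to 180) and Eef1d (126 CPM, the others 106 to 108), and the lowest for Eif4enif1 (42.2 CPM, the others 46.2 to 46.5). BAPN 1 was the lowest of its group for Eif3j (64.2 CPM, the others 74.4 to 74.8). Vehicle 2 was the highest for Eif6 (65.4 CPM, the others 50.9 to 52.1) and Vehicle 4 for Eif4h (273 CPM, the others 246 to 249). What sets these rats apart was not tested.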

How the results depend on the processing

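The main fit made 19 calls (18 higher, 1 lower), beside 16.8% of all tested genes. Of the 19, 11 (11 higher, 0 lower) were made with sex as a covariate, beside 7.96% of all genes. Among females alone 0 (0 and 0) were made, where edgeR called 89 genes in all, 0.762%. With a replicate block 5 (5 and 0) were made, beside 4.76% of all genes. The replicate numbers do not pair the rats, and not every rat correlated best with its own number. Leaving out 1 rat gave 5 to 17 calls, 5 to 17 higher and 0 to 1 lower, beside 3.40% to 19.0% of all genes. DESeq2 called 28, 2 of them lower, beside 27.4% of all genes. Scaling by DESeq2 size factors or filterByExpr gave 18 calls each (16.5% and 12.7% of all genes), and thinned counts 17 (16.4%). Library totals alone or no filter on low counts gave 15 each (14.3% and 7.54% of all genes), with 0 lower without the filter. The median log2 fold change was 0.22 with library totals alone, and that of the eIF1, eIF2, eIF5 and eIF6 group was 0.36 among females. With library totals alone the median of all tested genes also moved, from 0.02 to -0.04. The cause of the other shifts was not tested. All reversals were of uncalled genes. The sign of the called genes, which had no overlap, could hardly turn. With library totals alone Eif1ax and Eif3a, within that shift of all genes, were at -0.0215 and -0.0151. Eif4g3 was at 0.0146 with filterByExpr, 0.0284 without a filter, 0.0029 with sex and 0.00075 after thinning, and Eif4h at 0.0092 among females. Leaving out 1 rat gave -0.0324 to 0.0926 for Eif1ax, -0.0417 to 0.12 for Eif3a, -0.0684 to 0.0179 for Eif4b, -0.00575 to 0.23 for Eif4g1, -0.0858 to 0.0453 for Eif4g3, -0.0656 to 0.00183 for Eif4h and -0.38 to 0.0299 for Eef2kmt. Every BAPN library is deeper than every vehicle library, the sexes are unevenly split, and 4 rats per group limit precision. Counts are not divided by length, so levels of different genes are not comparable.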
